A study of Mus musculus with 14 samples.

Results

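The genes described here are 5 keratins (Krt7, Krt8, Krt18, Krt19 and Krt23) and 5 genes linked with bile duct cells, liver progenitor cells or the fetal liver (Sox9, Epcam, Spp1, Cd24a and Afp). They were taken by gene symbol from the count files of mouse livers, which gave 10 of 55357 genes. The study compared 8 livers of a model group with 6 livers of a control group, both from male C57BL/6 mice that were 5 to 6 weeks old at the start and were acclimatised before use. Model mice received lipopolysaccharide (LPS, a component of the bacterial cell wall) at 10 µg/kg and D-galactosamine (D-GalN, an amino sugar toxic to hepatocytes) at 300 mg/kg into the abdominal cavity, which brings on acute liver failure. Control mice received saline, and livers of both groups were taken 24 h later. The libraries came from polyadenylated RNA of liver tissue, so every cell type of the organ contributed, infiltrating blood cells included. Whether each sample came from its own animal is not stated in the labels, and p-values therefore cover the spread among the 14 samples alone.

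Keratins are intermediate filament proteins that assemble as pairs of a type I and a type II chain. Healthy hepatocytes build their filaments from keratin 8 and keratin 18, whereas bile duct cells add keratin 7 and keratin 19. Sox9 is a transcription factor of bile duct cells and of the ductular or hybrid hepatocytes that appear after liver injury, and Epcam is an adhesion protein of bile duct and progenitor cells. Spp1 encodes osteopontin, a secreted ligand of integrins and CD44, and Cd24a encodes a small surface glycoprotein of progenitor cells and of several blood cells. Afp, alpha-fetoprotein, is the major plasma protein of the fetal liver and is largely switched off after birth.

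Of the 10 genes, 8 were higher and 1 was lower in model livers at an adjusted p under 0.05 in edgeR's quasi-likelihood test. Over all 12915 genes tested, 26.6% were called higher and 21.3% lower, 47.9% in either direction. Sox9 rose 26.9-fold, Cd24a 7.88-fold, Krt19 6.45-fold, Krt8 6.29-fold, Krt7 6.14-fold, Krt18 4.65-fold, Epcam 4.35-fold and Spp1 1.79-fold. Afp fell 3.71-fold, and Krt23 did not pass the test. All 10 genes had passed the filter on low counts. In 6 genes every model library lay above every control library, a pattern found in 14.6% of all genes tested, and in Afp every model library lay below, found in 8.63%. The median log2 fold change of the 10 genes was 2.42, against 0.0099 over all genes tested. In bulk tissue, more cells of a type and more RNA per cell cannot be told apart.

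**Figure D1:**
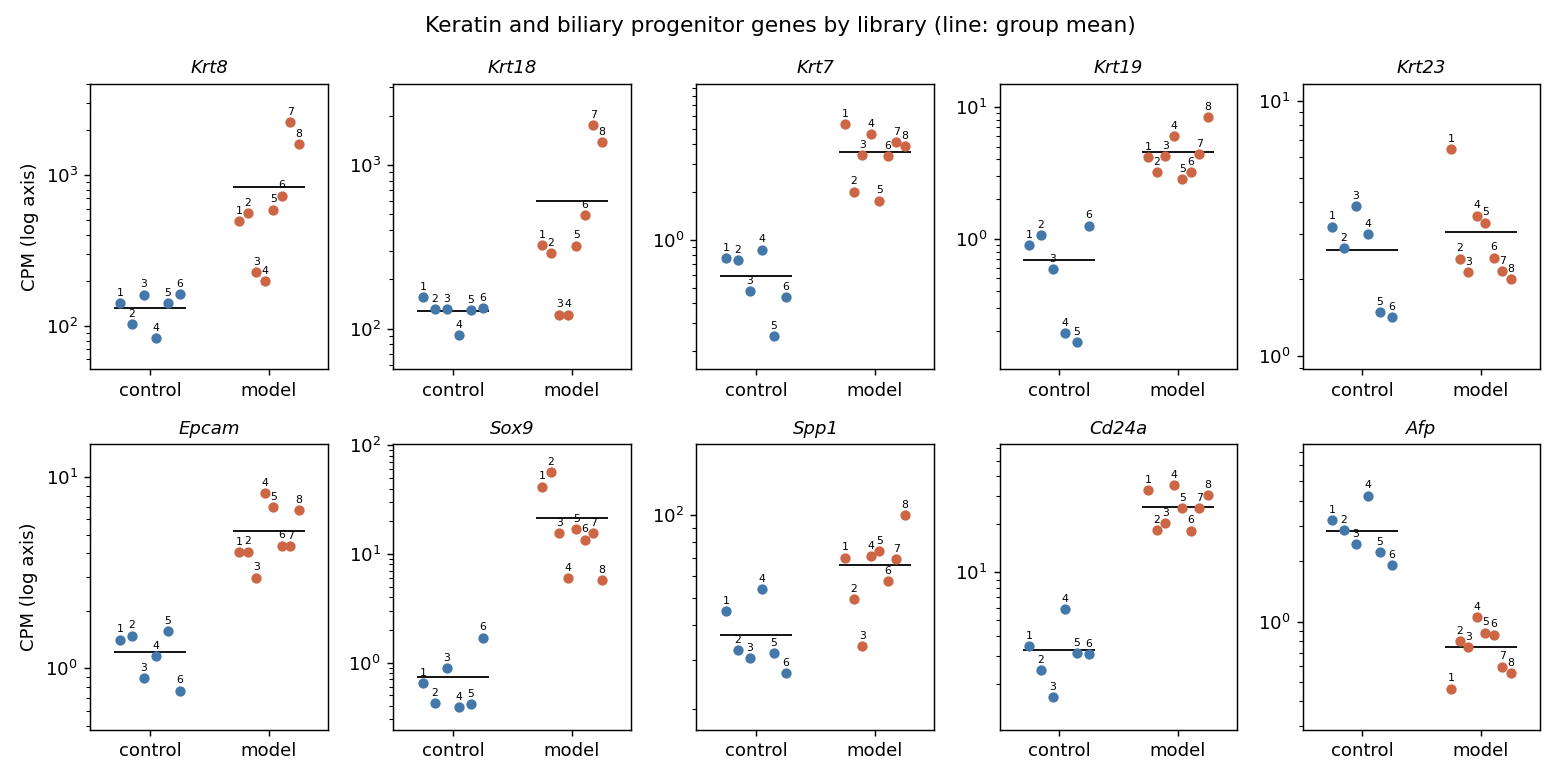
Counts scaled to library size (CPM, log axis) of the 10 genes in each library, with control libraries in blue, model libraries in orange, the replicate number above each point and a line at the group mean. Krt7, Krt8, Krt19, Sox9, Epcam and Cd24a separate the groups upwards and Afp downwards, whereas Krt18, Krt23 and Spp1 overlap.

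Libraries held 10329469 to 16639972 counts in genes in the model group and 7914120 to 14463540 in the control group. Over all genes tested, 26.6% were called higher and 21.3% lower, the shares to set beside each marker count below. Hepatocyte transcripts dominated both groups, with summed marker levels of 86892 to 100875 CPM in model and 59825 to 83762 CPM in control. Of 13 hepatocyte markers 4 rose, or 30.8%, close to the share over all genes. Neutrophil markers rose in 10 of 10 cases, with sums of 1262 to 2883 CPM in model against 4.15 to 16.9 CPM in control. Of the tested markers, 7 of 10 rose and 1 fell for macrophages and monocytes, 4 of 5 rose and 1 fell for erythroid cells, and 6 of 8 rose and 1 fell for stellate cells and fibroblasts. Mesothelial markers, from a surface layer that also makes keratins 7, 8, 18 and 19, rose in 2 of 3 cases, at sums of 3.62 to 17.9 CPM in model and 0.577 to 7.93 CPM in control. None of 4 B and plasma cell markers passed the test, at 4.11 to 12.6 CPM against 4.86 to 12.7 CPM. Pancreas and gut markers rose in no case and fell in 2 of 4, and Cpa1 of the pancreas and Cdx2 of the gut had no count in any library. Among proliferation markers 3 of 7 rose, at summed levels of 36.0 to 50.7 CPM against 23.2 to 32.5 CPM.

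The keratin pair of hepatocytes was the most abundant of the group. Divided by exonic length, Krt18 stood at 89.6 ± 14.5 CPM per kb and Krt8 at 67.5 ± 16.6 CPM per kb in control livers (SD, n = 6), with ranges that overlapped. In model livers they stood at 416 ± 426 and 425 ± 367 CPM per kb (SD, n = 8). Spp1 came next in both groups. Together Krt8 and Krt18 made up 94.3% to 99.6% of all keratin CPM in model libraries and 94.6% to 98.5% in control libraries.

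Krt8 (ENSMUSG00000049382.11), the type II chain of that pair, ranged in model libraries from 199 to 2245 CPM with a median of 574, and in control libraries from 83.0 to 163 CPM with a median of 141. The groups did not overlap. The fitted log2 fold change was 2.65 (SE 0.49, adjusted p = 0.000269). Models 7 and 8 held the highest levels, at 2245 and 1609 CPM, and models 4 and 3 the lowest, at 199 and 228 CPM. The other 4 model libraries lay between 495 and 730 CPM. Without models 7 and 8 the rise was 3.64-fold (log2 1.86, SE 0.32, adjusted p = 0.000203).

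Krt18 (ENSMUSG00000023043.8), the type I chain, spread more widely among model libraries than in controls. Its lowest, median and highest levels were 122, 322 and 1742 CPM in model and 90.8, 132 and 155 CPM in control. Models 3 and 4, each at 122 CPM, lay inside the control range, and the other 6 model libraries lay above it. The log2 fold change was 2.22 (SE 0.55, adjusted p = 0.00307). Models 7 and 8 were again highest, at 1742 and 1373 CPM, and without both the rise was 2.23-fold (log2 1.16, SE 0.31, adjusted p = 0.00605). Without models 3, 4, 7 and 8, an alternative chosen after seeing the data, it was 2.80-fold (log2 1.49, SE 0.21).

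Models 7 and 8 also held the lowest summed erythroid markers of the model group, at 1949 and 1155 CPM against 2797 to 24286 CPM in the other 6, and the lowest macrophage and monocyte markers, at 524 and 574 CPM against 624 to 873 CPM. The part of these markers in the keratin levels was not tested. Hepatocyte markers summed to 94840 CPM in model 7 and 86892 CPM in model 8, the latter the lowest of the model group. Single hepatocyte markers differed from the sum. Hnf4a was highest in models 7 and 8, at 1012 and 617 CPM against 155 to 574 CPM in the other 6. Apoa1 was lowest in model 7, at 7423 CPM. The part of hepatocytes in the keratin levels was not tested either.

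The base sequence just before the start of Krt18 is shown because this gene, with Krt8, carried most keratin RNA. It covers chr15:102027966-102028179 on the plus strand, from RefSeq for the build GRCm38.p6, 5′ to 3′. Capitals mark matches to GGG and CC separated by any 5 bases, a loose core of the sites bound by NF-kappaB, a factor that acts downstream of LPS and TNF.
Krt18: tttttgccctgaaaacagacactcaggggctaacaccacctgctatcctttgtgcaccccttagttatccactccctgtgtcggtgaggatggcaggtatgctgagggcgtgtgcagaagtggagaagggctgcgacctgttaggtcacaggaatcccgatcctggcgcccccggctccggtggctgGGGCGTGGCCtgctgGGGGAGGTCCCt
There were 3 matches on the plus strand, at 63, 48 and 47 bases before the RefSeq start, the last 2 overlapping each other. Such a match, on either strand, is common and occurred in 50.8% of 32851 promoter windows of 300 bases. Matches to this pattern also occurred in the windows of Krt7, Krt8 and Krt23, and none was found in those of Epcam, Spp1 and Afp.

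The balance of the pair moved as well. Within a library, Krt8 had 0.778 to 1.23 reads for each Krt18 read in controls and 1.17 to 1.94 in models. The mean log2 ratio was 0.01 ± 0.27 in control (SD, n = 6) and 0.65 ± 0.26 in model (SD, n = 8), a difference of 0.64 or 1.56-fold. A two-sided exact permutation test over all 3003 splits gave p = 0.00133, or 0.00266 after adjustment over the 2 keratin ratios tested. The model libraries with most keratin RNA, 7 and 8, had the lowest ratios of their group, at 1.29 and 1.17, and model 8 lay inside the control range. This ratio does not depend on how libraries are scaled, and it says nothing of the amounts of protein. An offset for length and GC content brought the fitted log2 fold changes closer, to 2.58 for Krt8 and 2.29 for Krt18, from 2.65 and 2.22.

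**Figure D2:**
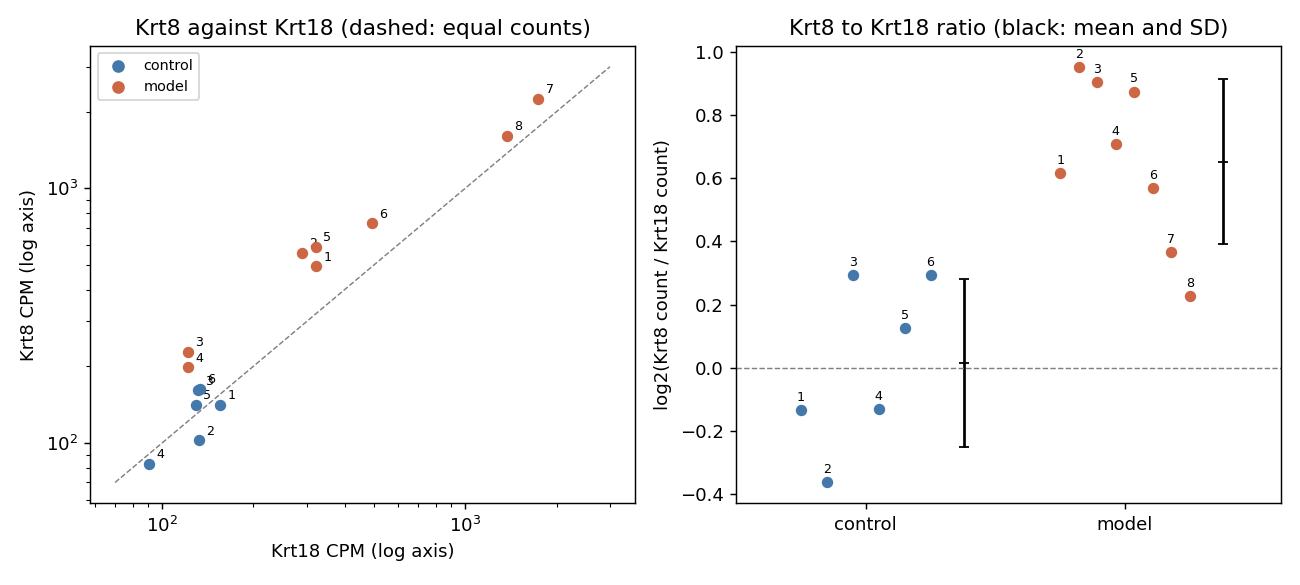
Left, Krt8 against Krt18 in CPM on log axes for each library, with a dashed line at equal counts. Right, the log2 ratio of Krt8 to Krt18 counts in each library, with the group mean and SD in black. Control libraries lie near the line and the model libraries above it, with models 7 and 8 far to the upper right at ratios of 1.29 and 1.17.

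The bile duct keratins were scarce in control livers, and each model library lay above all of them. Krt19 (ENSMUSG00000020911.15), a type I chain and the usual marker of bile duct cells, had 4.56 ± 1.83 CPM in model (SD, n = 8) and 0.695 ± 0.455 CPM in control (SD, n = 6). The lowest, median and highest libraries were 2.84, 4.21 and 8.35 CPM in model and 0.165, 0.746 and 1.26 CPM in control. The ranges did not overlap, and the log2 fold change was 2.69 (SE 0.41, adjusted p = 3.65e-05). Control libraries held 2 to 23 Krt19 reads each, so the control level is imprecise. Model 8 was the highest and model 4 the second highest, at 6.04 CPM, although model 4 had the least Krt8.

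Krt7 (ENSMUSG00000023039.18), the type II partner in bile ducts, showed a similar step. Model libraries ranged from 1.76 to 5.32 CPM with a median of 3.64, and controls from 0.247 to 0.868 CPM with a median of 0.608. No libraries overlapped, and the log2 fold change was 2.62 (SE 0.34, adjusted p = 6.49e-06). Models 7 and 8, which stood far above the rest for Krt8 and Krt18, were at 4.11 and 3.86 CPM for Krt7, inside the range of the other model libraries. Per length, Krt19 in model livers (2.46 ± 0.986 CPM per kb) lay beside Epcam (2.38 ± 0.831) and Krt23 (1.95 ± 0.956), levels that did not differ beyond their spread. Krt7 stood at 0.504 ± 0.172 CPM per kb, but its length took in all annotated exons, 7049 bases against 1855 for Krt19. Before division by length, model livers had 3.56 ± 1.21 CPM of Krt7 and 4.56 ± 1.83 CPM of Krt19. The lower value of Krt7 per kb thus depends on the length used.

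Krt19 was set against Krt18 to see whether the duct keratin kept pace with the one shared by hepatocytes. There were 1.59 to 9.65 Krt19 reads per 1000 Krt18 reads in controls and 2.55 to 49.9 in models. The log2 ratio was higher in models by 1.26, with exact permutation p = 0.0839, so no difference was shown. Models 3 and 4 had the highest ratios, at 35.4 and 49.9, and model 7 the lowest of its group, at 2.55. Without model 7 the difference was 1.57 (exact permutation p = 0.0256), without models 7 and 8 it was 1.76 (exact permutation p = 0.0152), and without models 3 and 4 it was 0.62 (exact permutation p = 0.26).

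Krt23 (ENSMUSG00000006777.8), a type I keratin, was the 1 gene of the 10 that was not called. Its means were 3.06 CPM in model (n = 8) and 2.60 CPM in control (n = 6), and the log2 fold change was 0.23 (95% interval -0.40 to 0.85, adjusted p = 0.582). Model libraries ran from 2.00 to 6.48 CPM and controls from 1.42 to 3.85 CPM. Model 1 was the highest, and the other 7 model libraries, from 2.00 to 3.55 CPM, lay inside the control range. Scaled by library totals the log2 fold change was -0.02, and without model 1 it was -0.0088, so its sign is not settled.

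The rest of the keratin family added little RNA. The files listed 45 other keratin genes by symbol, of which 32 had no count in any library and 2 passed the filter. Krt80, a type II keratin, rose from 0.272 ± 0.179 CPM in control to 2.06 ± 0.598 CPM in model (log2 fold change 2.90, SE 0.40, adjusted p = 1.28e-05), with no overlap. Krt10, a type I keratin of the upper epidermis, fell from 3.18 ± 1.70 to 0.977 ± 0.601 CPM, which is -1.72 as a log2 fold change (SE 0.42, adjusted p = 0.00273), with overlap. The other 11 with counts were below the filter, led by Krt17 with 30 reads over the model libraries and 1 over the controls. A processed pseudogene copy of Krt8, Krt8-ps, held 0.830 ± 0.806 CPM in model and 0.214 ± 0.162 CPM in control, far less than Krt8 itself. Counting with strand is not stated, and in the GRCm38 annotation Krt8, Krt7 and Afp overlap genes on the other strand. Of those, the one beside Krt8 had 57 reads in model and 7 in control, and the one beside Krt7 had none.

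Sox9 (ENSMUSG00000000567.6) showed the largest fold change of the 10 genes. It had 21.4 ± 18.1 CPM in model (SD, n = 8) and 0.742 ± 0.506 CPM in control (SD, n = 6). The lowest, median and highest libraries were 5.73, 15.4 and 56.6 CPM in model and 0.386, 0.533 and 1.70 CPM in control. The lowest model library was thus above the highest control, and the log2 fold change was 4.75 (SE 0.60, adjusted p = 4.89e-06). Models 2 and 1 were highest, at 56.6 and 41.7 CPM, and models 8 and 4 lowest, at 5.73 and 5.96 CPM. Model 8 was thus the second highest library for Krt8 and the lowest of the model group for Sox9. Without models 3, 4, 7 and 8 the rise was 40.5-fold. Ranked per length among 12899 genes, Sox9 went from percentile 7.48 in control to 64.5 in model, and Krt19 from 15.4 to 48.3.

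Epcam (ENSMUSG00000045394.10) was tighter. Model libraries held 2.98, 4.37 and 8.23 CPM (lowest, median, highest) and controls 0.766, 1.29 and 1.57 CPM. There was no overlap, with a log2 fold change of 2.12 (SE 0.29, adjusted p = 1.04e-05). Control libraries held 11 to 19 Epcam reads each, so the control level is imprecise. Model 4 was highest and model 3 lowest, so the pair that was lowest for Krt8 stood at the opposite ends for Epcam.

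**Figure D3:**
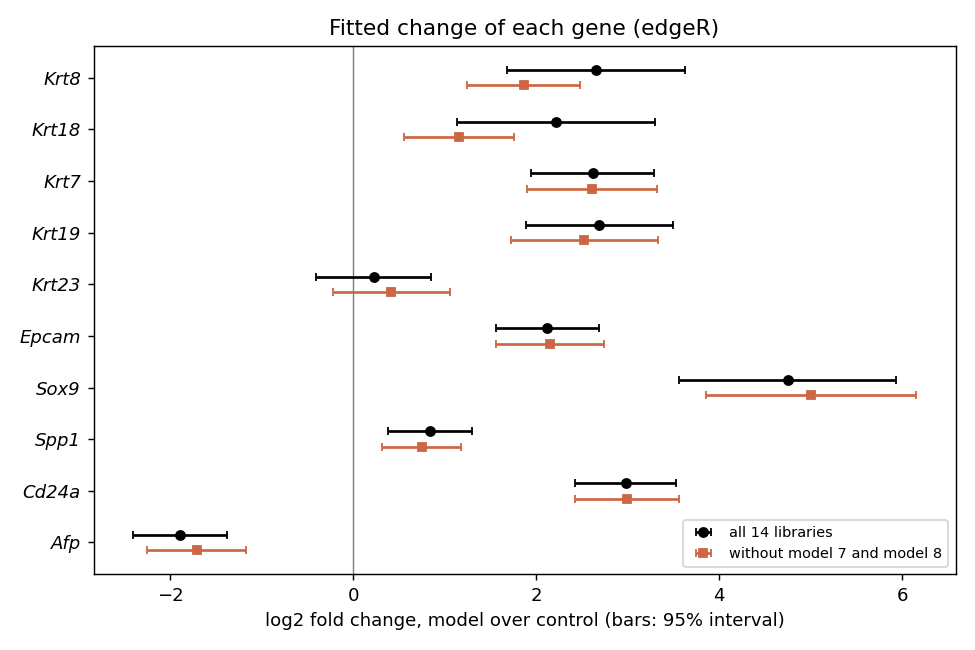
Fitted log2 fold change (model over control) of each gene with 95% intervals, for all 14 libraries (black circles) and without models 7 and 8 (orange squares). Leaving out the pair lowers Krt8 from 2.65 to 1.86 and Krt18 from 2.22 to 1.16, and the other genes move less.

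Cd24a (ENSMUSG00000047139.10) had 25.7 ± 6.53 CPM in model (SD, n = 8) and 3.27 ± 1.43 CPM in control (SD, n = 6). The lowest, median and highest model libraries were 18.2, 25.2 and 35.1 CPM, and the controls were 1.66, 3.10 and 5.89 CPM. The groups were clearly apart, with a log2 fold change of 2.98 (SE 0.28, adjusted p = 1.41e-07). Neutrophils, B cells and erythroid precursors also carry CD24. Neutrophil markers moved in the same direction in all 10 cases, with S100a9 and S100a8 the most abundant at 1069 ± 376 and 426 ± 156 CPM in model against 4.95 ± 4.11 and 1.96 ± 1.35 CPM in control, and their part in the Cd24a level was not tested. The B cell markers Cd79a (log2 fold change 0.58, adjusted p = 0.179) and Cd79b (log2 fold change -0.67, adjusted p = 0.094) did not pass the test. Cd79a passed without models 7 and 8 (adjusted p = 0.0259), and Cd79b passed, as a fall, with library totals (adjusted p = 0.0203) and with the length and GC offset (adjusted p = 0.0236). Of the 5 tested erythroid markers 4 rose, the globin genes Hbb-bs and Hba-a1 most (log2 fold change 4.11 and 3.67). Klf1, the other of the 5, fell (log2 fold change -2.28, adjusted p = 8.05e-05). The part of B cells and erythroid cells in the Cd24a level was not tested.

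Spp1 (ENSMUSG00000029304.15) changed least among the called genes. It had 65.7 ± 19.4 CPM in model (SD, n = 8) and 36.7 ± 10.4 CPM in control (SD, n = 6). Model libraries ranged from 33.7 to 99.8 CPM and controls from 26.9 to 53.8 CPM, so the groups overlapped. The log2 fold change was 0.84 (SE 0.23, adjusted p = 0.0064). Models 3 and 2, at 33.7 and 49.6 CPM, lay inside the control range, and the other 6 lay above it. Macrophages also secrete osteopontin. Their summed markers were 524 to 873 CPM in model and 259 to 479 CPM in control. Clec4f of Kupffer cells did not pass the test (log2 fold change -0.10, adjusted p = 0.758, or 0.17 without models 7 and 8). Other genes of that marker list moved both ways, Timd4 (log2 fold change 1.75) and Marco (4.30) upwards and Vsig4 (-1.31, adjusted p = 0.000585) downwards. The part of macrophages in the Spp1 level was not tested.

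Afp (ENSMUSG00000054932.7) went the other way. It had 0.745 ± 0.197 CPM in model (SD, n = 8) and 2.81 ± 0.838 CPM in control (SD, n = 6). Model libraries ran from 0.463 to 1.06 CPM and controls from 1.92 to 4.24 CPM, with no overlap. The log2 fold change was -1.89 (SE 0.26, adjusted p = 1.32e-05). These levels rest on 4 to 14 reads per model library and 25 to 44 per control library. The overlapping antisense gene Gm43449 held 54 reads over the model libraries and 69 over the controls, so reads of the pair cannot be told apart without strand.

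The 250 bases before the RefSeq start of Afp (chr5:90490464-90490713, plus strand, GRCm38.p6, 5′ to 3′) are shown because Afp was the gene of the group that fell. Capitals mark a match to the letters TATAAA.
Afp: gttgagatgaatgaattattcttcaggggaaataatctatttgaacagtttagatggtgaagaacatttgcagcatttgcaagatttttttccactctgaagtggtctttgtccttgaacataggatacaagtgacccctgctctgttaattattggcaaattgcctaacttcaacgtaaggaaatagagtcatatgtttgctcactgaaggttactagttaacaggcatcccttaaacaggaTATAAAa
The match began 7 bases before the start. On either strand, TATAAA occurred in 13.6% of the 32851 windows, those of Krt8 and Spp1 among them.

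Of 18 listed oncofetal genes and regulators of Afp, 12 were tested, 3 rose and 3 fell, shares close to the 26.6% higher and 21.3% lower over all genes tested. The list's median log2 fold change was 0.47. Zhx2 and Zbtb20, repressors of Afp in the adult liver, had log2 fold changes of 0.58 (adjusted p = 0.0761) and -0.41 (adjusted p = 0.445) and were not called. Trp53, which encodes p53, another repressor of Afp, rose from 7.83 ± 2.41 to 27.2 ± 16.0 CPM, which is 1.79 as a log2 fold change (SE 0.35, adjusted p = 0.000401). Cebpa, a factor of mature hepatocytes, fell from 171 ± 30.3 to 64.1 ± 30.7 CPM, which is -1.41 as a log2 fold change (SE 0.32, adjusted p = 0.00152), and Foxa2, a pioneer factor of the liver, fell with a log2 fold change of -0.94 (adjusted p = 0.014). Gpc3, a surface proteoglycan of fetal liver, rose with a log2 fold change of 1.92 (adjusted p = 0.00736), or 2.51 without control 6. Afm, the gene of afamin and a neighbour of Afp in the albumin family, had a log2 fold change of 0.49 (adjusted p = 0.0185), a call that was lost with library totals, upper-quartile factors, no filter on low counts, the length and GC offset, and without model 2 (adjusted p from 0.0722 to 0.306). Igf2 had no count in any library.

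Other genes of the bile duct epithelium changed in both directions. Of 30 listed genes, 22 were tested, 12 rose and 2 fell (all genes tested: 26.6% higher and 21.3% lower). The list's median log2 fold change was 1.04. Elf3, an epithelial transcription factor, had 31.9 ± 24.8 CPM in model and 0.328 ± 0.206 CPM in control (log2 fold change 6.65, SE 0.68, adjusted p = 3.93e-07). Without models 3, 4, 7 and 8 its log2 fold change was 7.38. The tight junction genes split. Cldn4 (log2 fold change 4.52, SE 0.66) and Cldn7 (log2 fold change 2.58, SE 0.44) rose, whereas Cldn3 fell from 50.6 ± 8.05 to 12.9 ± 5.86 CPM, which is -1.97 as a log2 fold change (SE 0.27, adjusted p = 1.2e-05). Without control 5 the value of Cldn4 was 5.55. Ggt1, the gamma-glutamyl transferase gene, rose with a log2 fold change of 3.91 (SE 0.54), or 4.63 without control 2.

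Pkhd1, which encodes a protein of the bile duct cilium, had 2.65 ± 0.857 CPM in model and 4.03 ± 0.842 CPM in control and missed the threshold (adjusted p = 0.0577). Cftr, the chloride channel of bile duct cells, was below the filter, with 64 reads over the model libraries and 8 over the controls, and Sctr, the secretin receptor, had 4 and 2. The bile duct markers thus did not move as a block: Krt19, Krt7, Epcam, Sox9 and Spp1 rose, and Pkhd1 was not called.

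Genes of other intermediate filaments, nuclear lamins included, and of partners of keratin filaments were listed next. Of 23 genes, 21 were tested, 11 rose and 1 fell, beside the same 26.6% and 21.3% over all genes. The list's median log2 fold change was 0.65. Ppl and Eppk1 encode periplakin and epiplakin, linkers that bind keratin filaments. Ppl had its highest levels in models 7 and 8, at 76.7 and 33.7 CPM, as did Eppk1 at 49.4 and 30.1 CPM, the same libraries that were highest for Krt8 and Krt18. The Ppl log2 fold change was 3.60 (SE 0.76), or 2.49 without both, 2.91 without model 7 and 4.21 without control 6. For Eppk1 it was 2.93 (SE 0.74), or 1.37 without models 7 and 8 and 2.21 without model 7.

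Lmnb1, a lamin of the nuclear envelope, rose evenly from 2.22 ± 0.641 to 19.6 ± 3.79 CPM, which is 3.13 as a log2 fold change (SE 0.24). Vim, the intermediate filament of mesenchymal and blood cells, rose with a log2 fold change of 2.45 (SE 0.21). Sfn, a 14-3-3 protein of epithelia, rose with a log2 fold change of 2.65 (SE 0.36). Tradd, the adaptor of the TNF receptor that binds keratin 18, fell from 10.5 ± 2.18 to 3.39 ± 0.999 CPM, which is -1.63 as a log2 fold change (SE 0.22, adjusted p = 1.08e-05). Dsp, which encodes the desmosomal anchor desmoplakin, was not called (log2 fold change -0.07).

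Pathways known to act on Sox9 and the ductular genes were also followed. Of 21 genes for Notch, YAP and TWEAK signalling, 17 were tested, 11 rose and 1 fell, beside 26.6% and 21.3% over all genes. The list's median log2 fold change was 1.54. The YAP target genes Ankrd1 (log2 fold change 5.62, SE 0.49), Ccn1 (log2 fold change 4.42, SE 0.32) and Ccn2 (log2 fold change 3.75, SE 0.30) rose with no overlap between groups. Amotl2, another YAP target of the list, overlapped between groups and was not called (log2 fold change 0.74, adjusted p = 0.169). Yap1 itself was not called (log2 fold change 0.65), while its DNA-binding partner Tead1 rose (log2 fold change 3.55, SE 0.52). Tnfrsf12a, the receptor of TWEAK, rose from 7.48 ± 3.48 to 90.9 ± 80.0 CPM, which is 3.62 as a log2 fold change (SE 0.61), or by 2.85 on the log2 scale without models 7 and 8. The ligand gene Tnfsf12 was not called (log2 fold change -0.60).

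Within the Notch pathway the receptor Notch1 (log2 fold change 2.26, SE 0.33), the ligand Jag1 (1.70), the nuclear partner Rbpj (1.92) and the target Hes1 (1.54) rose. Hes1 overlapped between groups, at 3.66 to 45.8 CPM in model and 3.28 to 6.81 CPM in control. The targets Hey1 and Heyl were below the filter and carry no test. Hey1 had 9 reads over the model libraries and 31 over the controls, and Heyl had 76 and 59. Dll4, a ligand of endothelial cells, had a log2 fold change of -1.18 (adjusted p = 0.045). That call was lost without any 1 of models 2, 3, 4 and 5 or of controls 1, 2, 3, 5 and 6 (adjusted p up to 0.115).

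Receptors of the surface and secreted proteins of the group mostly rose. Of 12 listed receptors of osteopontin and CD24, 10 were tested, 8 rose and 1 fell, where 26.6% and 21.3% of all genes did. The list's median log2 fold change was 2.22. Selp, the P-selectin that binds CD24, went from 0.637 ± 0.261 to 24.7 ± 11.0 CPM, which is 5.33 as a log2 fold change (SE 0.42). For osteopontin, Cd44 went from 4.54 ± 2.01 to 75.8 ± 19.2 CPM, which is 4.05 as a log2 fold change (SE 0.29) and Itgb3 from a control range of 1.03 to 2.46 CPM to 19.3 to 38.3 CPM, likewise a log2 fold change of 4.05 (SE 0.27). Itga4, an integrin chain of blood cells, rose with a log2 fold change of 3.32 (SE 0.44), or 4.13 without control 6. Itgb5 fell, from 27.4 ± 8.94 to 14.6 ± 2.95 CPM, which is -0.91 as a log2 fold change (SE 0.21, adjusted p = 0.00167). Cd44, Itgb3, Itga4 and Selp are also genes of leukocytes, platelets or endothelium, and the part of neutrophils and macrophages in these levels was not tested.

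**Figure D4:**
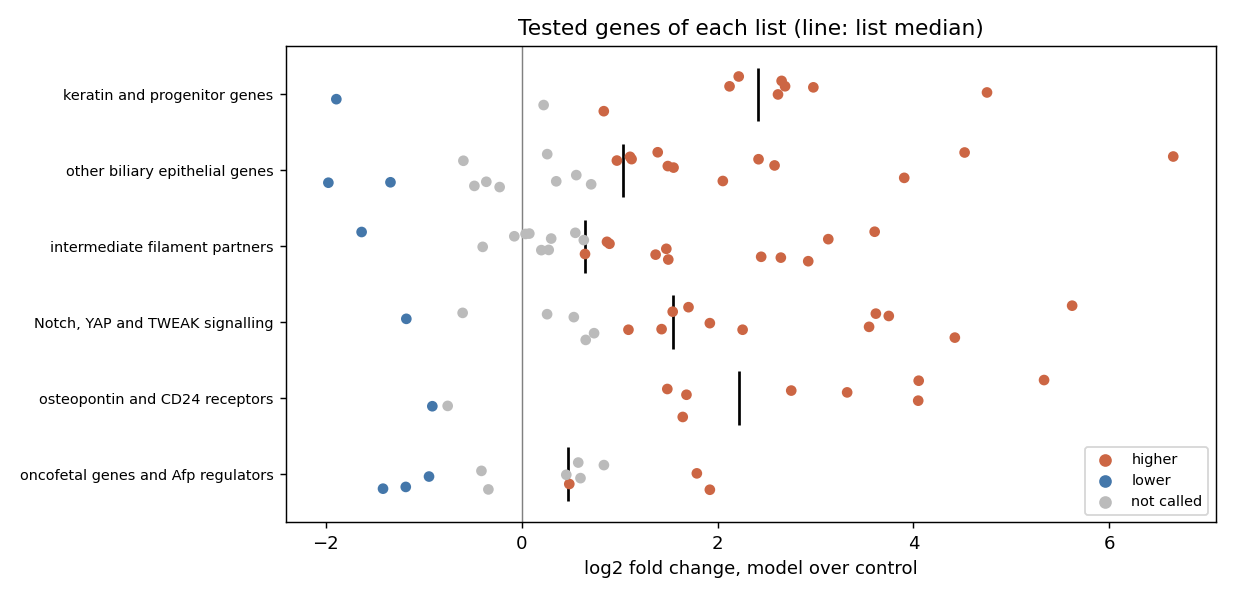
Log2 fold change (model over control) of every tested gene of the keratin and progenitor group and of 5 pathway lists, with called genes in orange (higher) or blue (lower), other genes in grey and a line at the list median. Medians run from 0.47 for oncofetal genes to 2.42 for the keratin and progenitor genes.

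Genes with the most similar profile were found by the root mean square difference of log2 CPM, taken relative to the control mean, over the 14 libraries and among 12433 genes. For Krt8 the nearest was Ugcg, a glycosphingolipid synthase gene, at 0.26 log2 units, followed by Hspa5, the chaperone BiP of the endoplasmic reticulum, at 0.41, and Rela, an NF-kappaB subunit, at 0.44. Nearest to Krt18 were Coq8b at 0.18, Kctd3 at 0.38 and Srxn1, the sulfiredoxin gene, at 0.44. None of the 3 nearest to Krt8 was among the 3 nearest to Krt18. Krt19 was closest to Pdpn, the podoplanin gene, at 0.43, then Prkcd at 0.45 and Agpat4 at 0.47. Epcam was closest to Sh3bgrl3 at 0.29, Rab31 at 0.35 and Parvg at 0.37, and Spp1 to Thy1 at 0.30, Arf4 at 0.33 and Morf4l2 at 0.33.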

How the data were processed

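Liver RNA was sequenced from 8 model and 6 control samples. The authors deposited raw read counts per gene, with symbols and Ensembl identifiers. Reads were aligned with HISAT2 to GRCm39, per the submitters' processing notes. Which counter, strand setting and annotation were used is not given in the sources used here. Summary lines without a gene (27.4% to 45.6% of entries, of which reads aligned to several places made 13.4% to 18.6% of all entries) were left out.

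Genes passing filterByExpr (12915) were fitted in edgeR 4.0.16 (R 4.3.3) with TMM factors, a robust quasi-likelihood test and Benjamini-Hochberg adjustment over all of them, called at 0.05. CPM used TMM factors. Exonic lengths came from a GRCm38 annotation, as the bases covered by any annotated exon of a gene, matched for 99.9% of tested genes. Promoter windows, from 250 bases before to 50 after the start, came from RefSeq (GRCm38.p6) and matched 7 of the 10 genes. Both strands were searched for the letters TATAAA, the GC box (GGGCGG), the AP-1 site (TGA, any base, then TCA), a loose NF-kappaB site (GGG, any 5 bases, then CC) and the STAT site (TTC, any 3 bases, then GAA), and only bases before both annotated starts are printed.

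The 10 genes and all lists were chosen with earlier results of these data known. Named are the 10 genes, up to 4 rising and 3 falling called genes of each pathway list with a group mean of at least 1 CPM, the 2 most abundant and 2 most changed markers of each cell type, tested keratins, and the 3 nearest profiles of 5 genes. Some genes that this rule gives are not reported here. Further list genes were named after their values were seen. Of the keratin and list genes named, Krt10, Krt80, Afm, Ccn2, Cd44, Cebpa, Cftr, Cldn3, Dll4, Dmbt1, Dsp, Elf3, Gpc3, Igf2, Itga4, Lrat, Mki67, Notch1, Pkhd1, Rbpj, Selp, Tead1, Tnfsf12, Top2a, Yap1, Zbtb20 and Zhx2 also overlap genes on the other strand in the GRCm38 annotation. Scripts were first tested on simulated counts. DESeq2 1.42.0 and limma 3.58.1 served as alternatives, beside other scalings, filters and left-out libraries. All 43 pairs of libraries within a group differed by more than sampling noise.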

Additional observations from a re-analysis of the deposited data

Results flagged for a closer look

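Of 24 sets of values checked (10 genes and 2 ratios in each group), 1 had a library far from the others. Krt23 in model 1 was 6.48 CPM, with the next model library at 3.55 CPM, and this gap was 0.655 of the range of the 8 libraries (critical value 0.526). Chance flags about 1 in 20 such sets. Krt23 was not called with or without model 1.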

How the results depend on the processing

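Across 25 alternatives, 8 of the 10 genes stayed called higher and 1 lower. Leaving out each replicate in turn gave 8 and 1 for these genes, 2975 to 3983 genes higher and 2452 to 2809 lower over all genes, 43 to 48 pathway list genes higher and 6 to 10 lower, a Krt8 to Krt18 difference of 0.563 to 0.698 and a Krt19 to Krt18 difference of 0.953 to 1.57. The length and GC offset gave 4196 genes lower (2751 otherwise) and 14 list genes lower, library totals 13 (8 otherwise), and 5 other keratin genes were higher with no filter (1 otherwise). Signs turned, all without a call, for Krt23 (-0.024 with library totals, -0.0088 to 0.381 leaving out replicates, the lowest without model 1), Cela1 (0.11 with the replicate block, 0.066 without models 7 and 8), Clec4f (0.168 and 0.173 in the same settings, -0.206 to 0.0076 leaving out replicates, the highest without model 8) and Jchain (-0.013 without models 3 and 4). Krt19 to Krt18 was 1.76 without models 7 and 8. Limma-voom gave a Krt18 log2 fold change of 1.61. The median of all genes moved to -0.23 with library totals, -0.14 with upper-quartile factors, -0.18 with the offset and 0.29 with no filter.

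Same-numbered samples correlated at -0.34 to 0.36 over 6 pairs and 1 of 6 matched its own number best. No pairing by number was seen, though 6 correlations are too few to exclude it. With the replicate block, which drops models 7 and 8, the genes called were 2949 higher and 2207 lower, list genes 39 and 8, and the log2 fold changes 1.76 for Krt8 and 1.00 for Krt18. Low counts of Krt7, Krt19, Sox9, Epcam and Afp limit precision.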

Other observations

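Some bile duct genes below the filter had reads in few libraries; they are named after their values were seen and carry no test. Dmbt1, a mucin-like secreted protein of reactive ductules and of mucosa whose gene overlaps Fgfr2 on the other strand in the GRCm38 annotation, had 461 reads in model 8 and 16 in model 7, 0 to 3 in each other model library and 0 or 1 in each control. Ddit4l, a regulator of mTOR, had 93 reads in model 8 and 50 in model 7, while the remaining model libraries held 2 to 14 each and the controls 6 to 16. Both genes were thus highest in the pair of libraries that was highest for Krt8 and Krt18.

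Among the other cell types, Lrat of quiescent stellate cells fell (log2 fold change -2.67, SE 0.34, adjusted p = 5.44e-06), while Acta2 of activated stellate and smooth muscle cells (log2 fold change 2.56, SE 0.28) and Dcn (log2 fold change 1.70, SE 0.21) rose. The mesothelial gene Msln rose from 0.742 ± 0.599 to 4.30 ± 2.04 CPM, which is 2.49 as a log2 fold change (SE 0.49, adjusted p = 0.000472). Of the cell cycle genes, Mki67 rose from 0.754 ± 0.610 to 3.27 ± 1.16 CPM, which is 2.10 as a log2 fold change (SE 0.51, adjusted p = 0.00255), or 2.74 without control 6. Top2a rose with a log2 fold change of 1.79 (SE 0.47, adjusted p = 0.00446). Of the 7 proliferation markers tested 3 rose and 4 were not called, among them Cdk1 with a log2 fold change of -0.66 (adjusted p = 0.082).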
